A study of Mus musculus with 3 samples.

Results

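DNA methylation at CCGG sites was compared gene by gene between undifferentiated embryonic stem cells (ESCs) and the same line on day 7 of differentiation without inhibitor. A gene was kept when at least 3 CCGG sites of its promoter (within 1 kb of an annotated start site) or of its gene body (the rest of the gene) were listed in either library. Of the 51229 autosomal genes of the annotation, 11592 were kept for the promoter, 20914 for the gene body, 24904 for either and 7602 for both. The ESCs were E14Tg2A, an established mouse line maintained with leukemia inhibitory factor (LIF, day 0). The day 7 cells were this line after LIF withdrawal and addition of retinoic acid, without pargyline. The sample labels call them differentiated only, and the day is that given in the methods of the study. A day 7 library from cells treated with 3 mM pargyline, an inhibitor of the histone demethylase LSD1, is shown side by side where it helps and enters no call. There was 1 library per condition, so intervals cover counting error only, and no p-value was computed. The cell type could not be checked against marker genes, since the libraries hold genomic DNA and no RNA.

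In mammals, DNA methylation is placed mostly on cytosines of CpG dinucleotides, by DNMT3A and DNMT3B at new sites and by DNMT1 after replication. CpG-rich promoters are usually kept free of methylation, gene bodies are usually methylated, and the promoters of pluripotency genes such as Pou5f1 are known to gain methylation when ESCs differentiate. In MethylRAD, the enzyme FspEI cuts on both sides of a methylated cytosine and the short fragments released are sequenced. The reads at a site rise with the share of DNA copies methylated there. A few fully methylated cells and many partly methylated cells cannot be told apart in such bulk DNA.

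After removal of a short and very deep repeat region on chromosome 2, 29711884 CCGG reads at 847112 sites remained in the undifferentiated library and 34222790 at 859372 sites on day 7. Of 940591 sites listed in either library, 765893 were listed in both, 93479 on day 7 only and 81219 in the undifferentiated library only. Values are reads per 1000000 CCGG reads of the library (RPM). Sites under 5 reads are not listed, so an unlisted site can hold up to 0.135 RPM in the undifferentiated library and 0.117 RPM on day 7. For each gene, the lowest and the highest ratio of day 7 over undifferentiated RPM that such unlisted reads allow were computed, over sites listed in either library. Reference CCGG motifs listed in neither library can also hold under 5 reads each and were left out, so the full range can be wider. This matters most in CpG-rich promoters, where those kept had a median of 15.0 motifs and 4.00 listed sites. A gene was called higher when the lowest allowed ratio was at least 2, and lower when the highest allowed ratio was at most 0.5. The reads used to scale the libraries were 58.3% of the mapped reads in the undifferentiated library and 46.4% on day 7, and scaling to mapped reads would shift every log2 ratio by -0.33.

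The promoter of Pou5f1, which encodes the pluripotency factor OCT4, stood among the promoters with the largest difference. Its summed promoter level was 0.202 RPM (6 reads) in the undifferentiated library, 3.62 RPM (124 reads) on day 7 and 3.45 RPM in the treated library. The ratio of day 7 over undifferentiated was between 4.89 and 17.9 for any reads that its 5 sites could hold where not listed. All 5 promoter sites were higher on day 7, but only 1 was listed undifferentiated. A site listed on day 7 only counts as higher by construction. The site 209 bp upstream of the start site held most of the reads, with 6 reads undifferentiated and 74 on day 7. The other 4 sites were not listed in the undifferentiated library and held 21 reads (672 bp upstream), 13 reads (157 bp downstream, in the coding exon), 6 reads (564 bp downstream, in an intron) and 10 reads (626 bp downstream, in an intron) on day 7. The reference sequence is shown around the site with the most reads and around the pair of intronic sites, as examples from both sides of the start site. It is from GRCm38.p6, on the plus strand, with the listed CCGG sites in capitals. CCGG reads the same on both strands.
Pou5f1 upstream, chr17:35505761-35505860: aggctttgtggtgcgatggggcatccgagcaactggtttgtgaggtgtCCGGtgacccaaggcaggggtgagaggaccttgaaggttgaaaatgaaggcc
Pou5f1 intron, chr17:35506535-35506694: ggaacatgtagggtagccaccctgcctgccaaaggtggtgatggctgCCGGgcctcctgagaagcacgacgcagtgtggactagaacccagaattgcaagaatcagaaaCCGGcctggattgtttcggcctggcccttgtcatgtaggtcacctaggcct

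The difference at Pou5f1 (chr17:35506018-35510772, plus strand) was not limited to the promoter. The gene body rose from 0.404 RPM (12 reads) to 3.16 RPM (108 reads), with 2.33 RPM in the treated library. All 7 body sites were higher on day 7, of which only 1 was listed undifferentiated, and the allowed ratio was 2.60 to 7.81. A pair of these sites lies 8 bp apart with 10 reads each and was read from the same fragments, so that the body holds 6 separate observations, and with the pair counted once the body was still called higher with a lowest ratio of 2.66. From 1 kb upstream to the gene end, 12 of 12 sites were higher, with that pair counted as 2, and the level went from 0.606 to 6.78 RPM, an 11.2-fold ratio. Only 2 of these 12 sites were listed undifferentiated, and the reads that the other 10 could hold allow a ratio as low as 3.47. In the neighbouring windows, the single site between 5 kb and 1 kb upstream was not listed undifferentiated and had 0.731 RPM (25 reads) on day 7, with a lowest allowed ratio of 5.43. From the gene end to 10 kb from the start site, 5 of 6 sites were higher and the level went from 4.68 to 7.89 RPM, with an allowed ratio of 1.59 to 1.69. These windows were chosen after the values were seen. Pou5f1 has a promoter of low CpG content, the class in which few promoters were called higher.

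**Figure D1:**
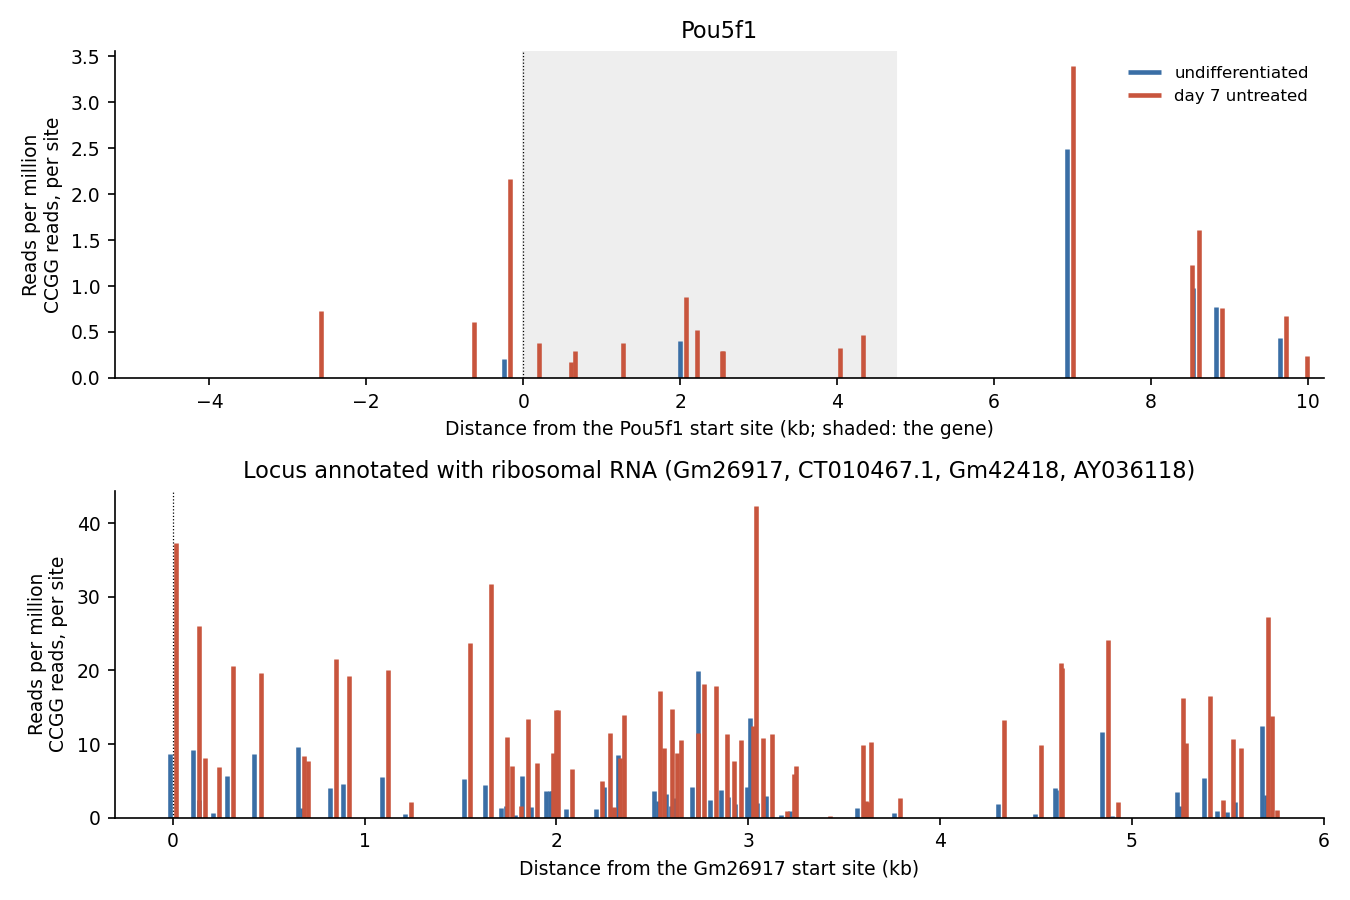
RPM (of CCGG reads) at each listed site against distance in kb from the start site of Pou5f1 (top, gene shaded) and of Gm26917 in a locus annotated with ribosomal RNA (bottom), 1 library each. Bars of the undifferentiated library (blue) and of day 7 (red) are drawn slightly left and right of their site. At Pou5f1 the 12 sites from 1 kb upstream to the gene end are all higher on day 7, and in the locus at the bottom 68 of 70 sites are. Only 2 of the 12 and 62 of the 70 were listed undifferentiated, and a site listed on day 7 only counts as higher by construction.

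Across all promoters kept, 661 (5.70%) were called higher on day 7 and 441 (3.80%) lower. The median log2 ratio over promoters was 0.14, or 0.17 with promoters not listed in 1 library set at their bound, and the median level was 2.49 RPM undifferentiated and 2.60 RPM on day 7. Of the gene bodies, 179 (0.856%) were called higher and 234 (1.12%) lower, and the median log2 ratio was -0.01. Promoters hold fewer sites than bodies (a median of 4.00 against 13.0), so each promoter value rests on fewer reads. At equal reads, the shares called lay closer together. With 200 to under 400 reads, 1.81% of 3203 bodies were higher and 2.72% lower, beside 2.29% and 2.77% of promoters, and with 50 to 99 reads 7.12% of 351 bodies were higher and 7.41% lower, beside 11.2% and 5.31% of promoters.

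The balance of higher over lower promoters rested on thinly read sites and on the scaling. When sites with fewer than 10 reads were left out of each list, 145 promoters were higher and 235 lower. With sites listed in both libraries alone, 162 were higher and 230 lower. Scaled to mapped reads instead of CCGG reads, 227 promoters were higher and 995 lower, with a median log2 ratio of -0.19, and 57 bodies were higher and 783 lower, with a median of -0.33. Of the 661 higher promoters, 182 had no listed site at all in the undifferentiated library. By the reads of both libraries together, 182 of 1589 promoters with under 50 reads (11.5%) were higher and 34 (2.14%) lower. Among promoters with 50 to 99 reads, 222 of 1977 (11.2%) were higher and 105 (5.31%) lower, whereas among those with 200 to under 400 reads 82 of 3579 (2.29%) were higher and 99 (2.77%) lower. The spread between the libraries was also wider than counting alone gives. An SD of the log2 ratio was estimated from percentiles over promoters listed in both libraries, and the counting value was taken at the middle of each range of reads. This SD was 1.01 among promoters with 50 to 99 reads, where counting gives 0.33. Among those with 200 to under 400 reads it was 0.51, where counting gives 0.17. When an interval 3 times as wide as the counting interval had to leave out a ratio of 1, 64 promoters (0.552%) were higher and 132 (1.14%) lower, and 49 bodies (0.234%) were higher and 116 (0.555%) lower. Whether depth or the listing limit produced the excess of higher promoters was not tested.

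**Figure D2:**
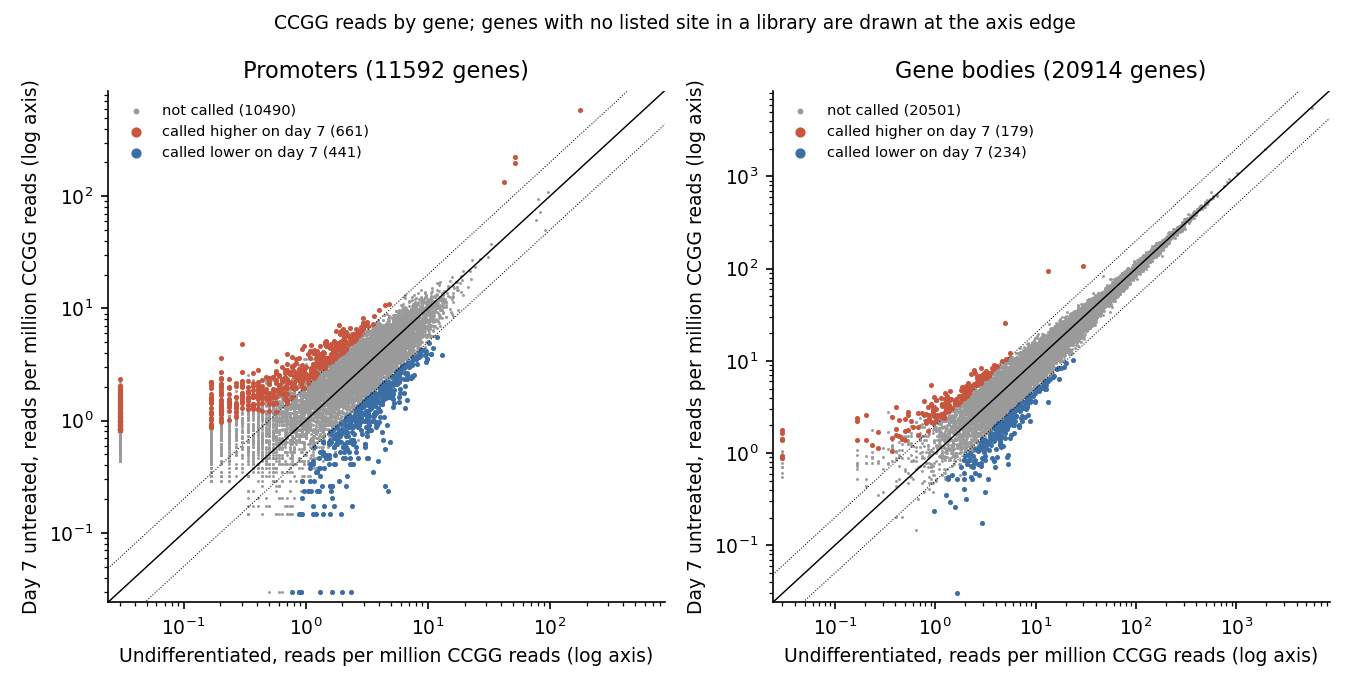
Day 7 untreated against undifferentiated RPM per gene, both axes logarithmic, for promoters (left) and gene bodies (right), with the diagonal and dotted lines at 2-fold. Red points are genes called higher on day 7 (661 promoters, 179 bodies), blue points genes called lower (441 and 234) and grey points genes not called. Genes with no listed site in a library sit at the axis edge, where many higher promoters are found.

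In 511 of the 661 higher promoters (77.3%) every listed site was higher on day 7, and in 179 of the 441 lower promoters (40.6%) every site was lower. These shares are not comparable, since 182 higher promoters had no listed site undifferentiated, where every site counts as higher by construction, and 9 lower promoters had none listed on day 7. Of the higher promoters, 376 had exactly 3 listed sites. Sites up to 12 bp apart are read from the same fragments and are not separate evidence. Among such pairs with at least 40 reads, 92.4% of 1192 pairs in the undifferentiated library and 89.7% of 2604 on day 7 had counts within 10% of each other, against 7.46% and 7.39% of pairs 13 to 24 bp apart. With such sites counted once, 590 of 11232 promoters (5.25%) were higher and 441 (3.93%) lower, and 567 of the 661 higher promoters (85.8%) remained called.

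Of the promoters that ranked first by the size of the difference after counting error, Tacc2, which encodes a centrosome-associated coiled-coil protein, had 0.303 RPM (9 reads) undifferentiated, 4.85 RPM (166 reads) on day 7 and 4.91 RPM treated. Its allowed ratio was 4.97 to 16.4. On day 7, 3 of its sites lay 12, 18 and 23 bp upstream of a start site with 44 or 45 reads each, and they were read from the same fragments. Counted once, the promoter went from 0.304 to 2.26 RPM and was still called higher, with a lowest ratio of 3.19. The site 906 bp upstream of the nearest start site, in an intron, had no listed reads undifferentiated and 21 reads on day 7. A site 677 bp downstream went the other way, from 9 reads to none listed. All of these sites also fall within the annotated extent of Fgfr2, a fibroblast growth factor receptor. The promoter of Nrip1, which encodes a corepressor of nuclear receptors, had no listed site undifferentiated and 2.02 RPM (69 reads) on day 7, with 0.999 RPM treated. Its 3 sites, 236, 244 and 256 bp upstream of the nearest start site, held 23 reads each and were read from 1 group of fragments, so that Nrip1 was not kept when such sites were counted once. The reference sequence (GRCm38.p6, listed sites in capitals) is shown for both to set a lone site beside neighbouring ones, Tacc2 on the plus strand and Nrip1 on the minus strand.
Tacc2, chr7:130645243-130645402: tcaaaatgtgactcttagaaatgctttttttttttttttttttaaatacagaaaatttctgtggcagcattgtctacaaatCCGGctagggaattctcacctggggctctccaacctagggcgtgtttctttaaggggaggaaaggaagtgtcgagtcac
Nrip1, chr16:76373214-76373373: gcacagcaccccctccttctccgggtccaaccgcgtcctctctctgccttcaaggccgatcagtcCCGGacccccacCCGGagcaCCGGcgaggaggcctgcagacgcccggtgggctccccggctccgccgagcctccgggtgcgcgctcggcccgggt
In the Nrip1 window 8 CCGG motifs were present and 3 were listed. In the Tacc2 window the listed site was the only CCGG motif.

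In several of the other first-ranked higher promoters 1 site held most of the day 7 reads. The promoter of Abracl rose from 0.707 RPM (21 reads) to 3.89 RPM (133 reads), with 2.87 RPM treated, and all 4 sites were higher. The site 588 bp upstream of its start site held 16 and 84 reads. Soat2, which encodes an enzyme that esterifies cholesterol, went from 1.08 to 4.18 RPM, with 7.20 RPM treated, and its 3 sites were listed in both libraries. Of these sites, 2 are 12 bp apart, so that Soat2 was not kept when they were counted once. Lrrc47 went from 0.236 to 2.34 RPM, with 1.50 RPM treated, and 56 of its 80 day 7 reads were at 1 site. Ap1s3, a subunit of the AP-1 clathrin adaptor, went from 0.202 to 2.13 RPM, with 4.12 RPM treated, and 50 of its 73 day 7 reads were at 1 site. Mtmr6, a phosphoinositide phosphatase, was not listed undifferentiated and had 1.90 RPM (65 reads) on day 7, at 3 sites within 51 bp of a start site with 20 to 23 reads each. In the treated library Mtmr6 had 1.91 RPM. All sites of Abracl, Soat2, Lrrc47, Ap1s3 and Mtmr6 were higher on day 7, but a site listed on day 7 only counts as higher by construction. Mtmr6 had no site, Lrrc47 and Ap1s3 had 1 site each and Abracl had 2 sites listed undifferentiated. Of the 8 first-ranked higher promoters, Tacc2, Pou5f1, Abracl and Soat2 also passed the interval 3 times as wide as counting, and Nrip1, Lrrc47, Ap1s3 and Mtmr6 did not.

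Among promoters that fell, Klhdc7a ranked first. It held 4.71 RPM (140 reads at 4 sites) undifferentiated, 0.234 RPM (8 reads at 1 site) on day 7 and 0.749 RPM treated, with an allowed ratio of 0.0496 to 0.124. The 4 sites had 66, 11, 23 and 40 reads undifferentiated, of which only the site 828 bp downstream of the start site was listed on day 7. The site 38 bp upstream, with 40 reads undifferentiated, was listed in neither day 7 library. Its reference sequence (GRCm38.p6, minus strand, listed site in capitals) is shown as an example of a lost site next to a start site.
Klhdc7a, chr4:139968027-139968186: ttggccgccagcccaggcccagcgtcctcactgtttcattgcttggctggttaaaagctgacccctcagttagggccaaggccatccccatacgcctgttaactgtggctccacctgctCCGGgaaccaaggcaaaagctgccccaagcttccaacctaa
Most of the other first-ranked promoters that fell were also of low CpG content. Defb50, a beta-defensin, fell from 2.39 to 0.175 RPM and had no listed site in the treated library. Cd300a, an inhibitory receptor of immune cells, went from 5.22 to 1.31 RPM, where the site 926 bp upstream took most of the difference (126 and 15 reads). Olfr731, an olfactory receptor, went from 3.20 to 0.468 RPM. Trim75 went from 4.24 to 0.789 RPM. Fam160a1 went from 3.23 to 0.468 RPM. Fam198b, with a promoter of intermediate CpG content, went from 3.20 to 0.731 RPM. Csrp2, a LIM-domain protein of smooth muscle, was the exception with a CpG-rich promoter and went from 3.57 to 0.351 RPM, with 90 reads undifferentiated and none listed on day 7 at the site 650 bp upstream. All 8 of these promoters also passed the interval 3 times as wide as counting. In 3 of them (Csrp2, Trim75 and Cd300a) 1 site was higher on day 7 while the sum fell.

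**Figure D3:**
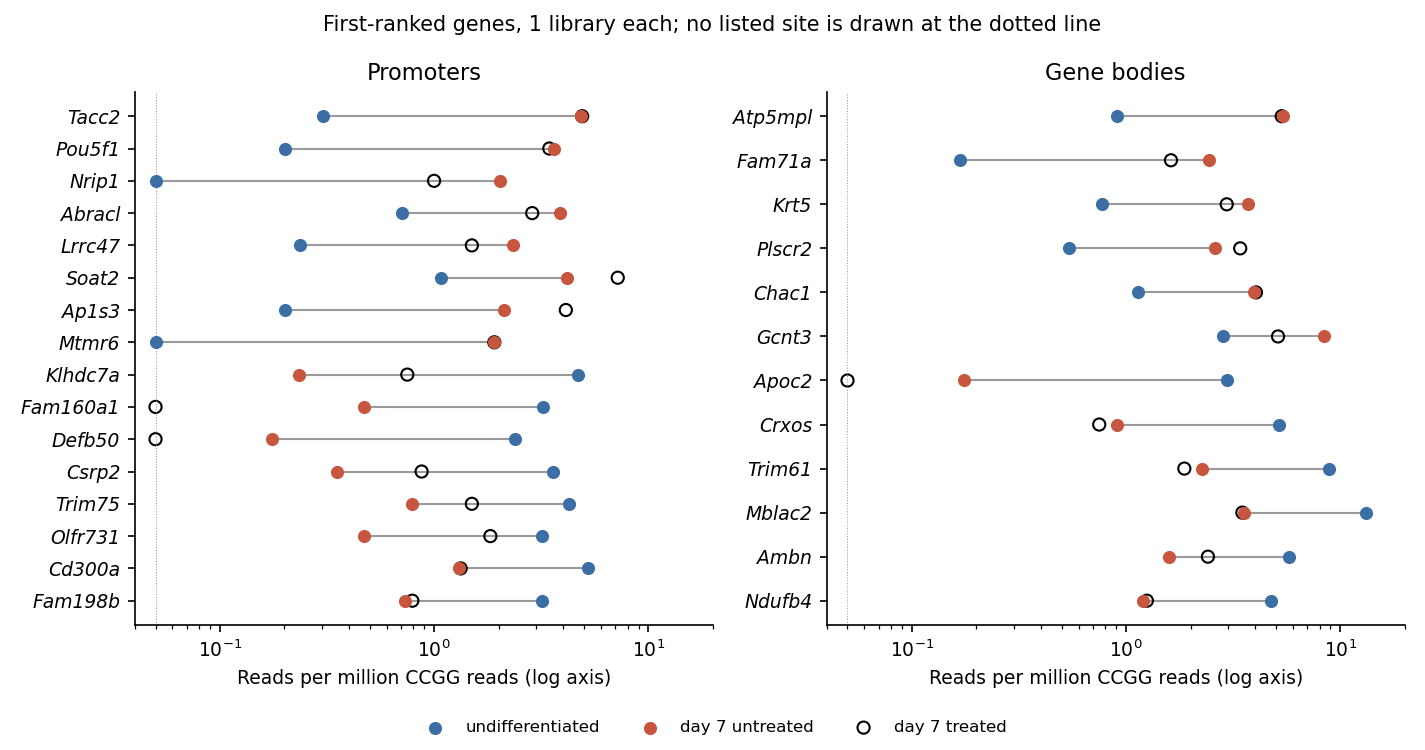
RPM (log axis) of the first-ranked promoters (left) and gene bodies (right) in the undifferentiated (blue), day 7 untreated (red) and day 7 treated (open circle) library, 1 library each, joined by a line between the libraries compared. Values with no listed site are drawn at the dotted line. The genes were chosen for their difference between the blue and the red points, as between 0.202 and 3.62 RPM at the Pou5f1 promoter, so that the gap itself is no result.

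Most gene bodies (15959 of 20914) held 400 or more reads, where 9 were higher and 35 lower, and the first-ranked bodies called had few sites. The body of Atp5mpl, a subunit of mitochondrial ATP synthase, rose from 0.909 to 5.43 RPM at 3 intronic sites. Krt5, a keratin of basal epithelial cells, rose from 0.774 to 3.71 RPM in the body and from 1.62 to 3.92 RPM in the promoter. Gcnt3, a glycosyltransferase of mucins, rose from 2.83 to 8.39 RPM with 3 of 4 sites higher. Chac1, an enzyme that degrades glutathione, rose from 1.14 to 3.94 RPM, but 2 of its 3 sites were read from the same fragments, and Chac1 was not kept when these were counted once. Plscr2, a phospholipid scramblase, rose from 0.539 to 2.60 RPM and Fam71a from 0.168 to 2.43 RPM, and neither passed the interval 3 times as wide as counting.

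Bodies that fell included genes with more sites. The body of Mblac2 fell from 13.2 RPM (391 reads) to 3.54 RPM (121 reads), with 8 of 9 sites lower and 3.49 RPM treated. Trim61 went from 8.85 to 2.25 RPM and all 4 sites were lower, but these sites also count for Trim60. Apoc2, the cofactor of lipoprotein lipase, went from 2.96 to 0.175 RPM and was not listed in the treated library. Ambn, an enamel matrix protein, went from 5.76 to 1.58 RPM, and Ndufb4, a subunit of respiratory complex I, went from 4.75 to 1.20 RPM. Crxos went from 5.15 to 0.906 RPM in the body with all 5 sites lower, while its promoter rose from 4.48 to 10.7 RPM. With the promoter taken as 1 kb upstream only, the log2 ratio of the Crxos body reversed to 0.13, so that the opposite directions depend on where the regions are divided.

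Promoter and body ratios were compared within genes. Spearman's rho between the log2 ratios of promoter and body was 0.0270 across 7118 genes and 0.0506 across the 2740 genes with at least 200 reads in each region. Genes within a library share its depth and are not independent replicates. Of 467 higher promoters whose gene body was also kept, 5 had a higher body (1.07%) and 4 a lower one (0.857%). Among the 256 lower promoters, 1 body was higher (0.391%) and 7 were lower (2.73%). Among the 6879 genes whose promoter was not called, 38 bodies were higher (0.552%) and 57 lower (0.829%). The genes called higher in both regions were Pou5f1, Krt5 and 3 genes of the ribosomal RNA locus. Those lower in both included Lrat, which makes retinyl esters from vitamin A, and Gstt3, a glutathione transferase. Crxos and Cdk4, the cyclin D-dependent kinase, were among 5 genes called in opposite directions. These genes were named after their values were seen.

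The counts also differed between promoters of different CpG content. A promoter was put in the high class when any 500 bp window within 1 kb of a start site exceeded 55% GC and, at the same time, an observed-over-expected CpG ratio of 0.75, and in the low class when no window reached a CpG ratio of 0.48. Among 5046 high-CpG promoters 416 (8.24%) were higher and 124 (2.46%) lower, with a median log2 ratio of 0.32. Among 3632 intermediate promoters 165 (4.54%) were higher and 158 (4.35%) lower, with a median of 0.07. Among 2914 low-CpG promoters 80 (2.75%) were higher and 159 (5.46%) lower, with a median of 0.01. High-CpG promoters held few reads per reference CCGG motif (a median of 0.0936 RPM undifferentiated and 0.121 RPM on day 7), whereas low-CpG promoters held 0.942 and 0.933 RPM. With sites listed in both libraries alone, 60 high-CpG promoters were higher and 64 lower, and with at least 10 reads per site 50 were higher and 50 lower. Scaled to mapped reads, 150 were higher and 294 lower, with a median of -0.01.

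The same class differed closest to the start site, where reads are sparsest. Within 500 bp of the start sites of high-CpG promoters, 6.60% of 115823 reference motifs were listed undifferentiated and 12.8% on day 7, and the level went from 0.0446 to 0.0631 RPM per motif, a ratio of 1.41. At 500 bp to 1 kb the ratio was 1.08, and at 2 to 5 kb it was 0.980. In intermediate and low promoters the ratio within 500 bp was 1.02 and 0.982. Of the sites within 500 bp of high-CpG start sites, 8902 were listed on day 7 only and 1691 in the undifferentiated library only. The sites listed on day 7 only had a median of 7 reads, against 17 reads on day 7 at the 5948 sites listed in both. The ratio of 1.41 became 1.34 with a minimum of 6 reads on day 7, 1.30 with at least 10 reads in each, 1.21 with at least 20 reads and 1.10 with sites listed in both libraries. Leaving out the ribosomal RNA locus gave 1.35, and counting shared fragments once gave 1.38. Scaled to mapped reads, the ratio was 1.13 with all listed sites, 0.963 with at least 20 reads and 0.874 with sites listed in both libraries, so that its direction depended on the scaling in these last settings. The depth of the day 7 list was larger than that of the undifferentiated list, and its part in the difference was not tested.

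**Figure D4:**
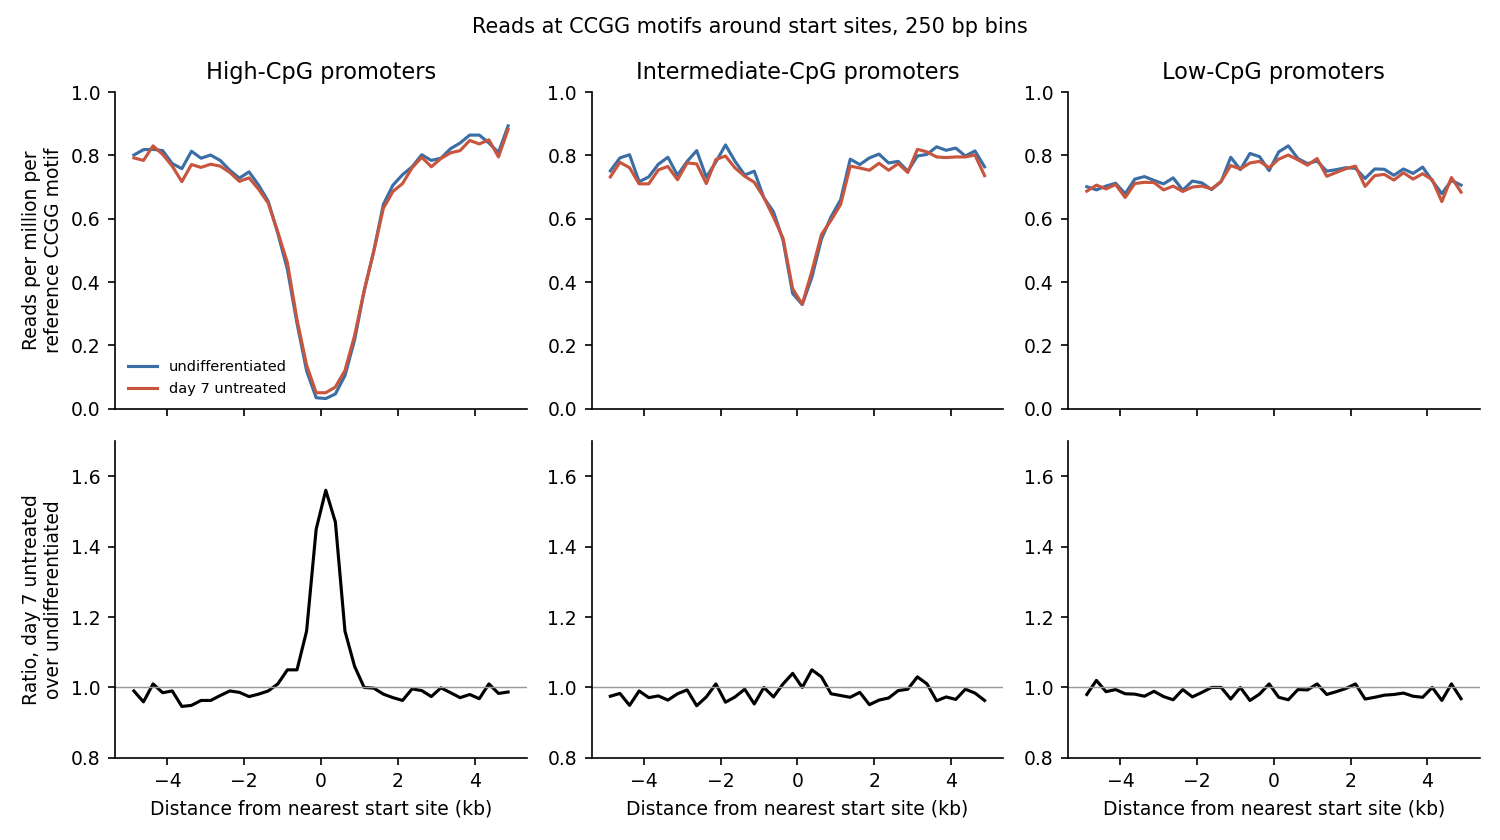
RPM per reference CCGG motif in 250 bp bins by distance in kb from the nearest start site (top), in the undifferentiated (blue) and the day 7 untreated (red) library, and their ratio (bottom), for high-, intermediate- and low-CpG promoters. Levels dip at the start sites of high- and intermediate-CpG promoters, and the ratio rises to 1.56 in the bin just downstream of high-CpG start sites, whereas it stays near 1 in the other classes.

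The deepest promoters called higher lay in a locus on chromosome 17 annotated with ribosomal RNA (chr17:39843013-39848755), a feature chosen after its values were seen. Ribosomal RNA genes are present in many copies, which could not be told apart in these counts. The locus held 70 sites, of which 68 were higher on day 7, and the level went from 237 RPM to 836 RPM, a ratio of 3.53, with 963 RPM in the treated library. At the 66 sites that are CCGG in the reference, all listed counts were higher on day 7, and the level went from 207 to 807 RPM. The 59 of these sites that were listed undifferentiated had ratios between 1.63 and 17.4, and the other 7 have no ratio. The promoter of Gm26917 went from 177 to 582 RPM, that of Gm42418 from 51.7 to 222 RPM and that of CT010467.1, the gene annotated as ribosomal RNA, from 41.8 to 134 RPM. These genes share sites, so they are not separate observations. The locus made up 0.0237% of the reads undifferentiated and 0.0836% on day 7.

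Gene lists chosen from textbook roles were read against the share of all promoters called higher (5.70%) and their median of 0.14 (0.17 with bounds). Pluripotency factors, which hold ESCs in the undifferentiated state, had 17 of 36 promoters kept, of which 5 were higher and none lower, with a median log2 ratio of 0.47 (0.99 with bounds). Pou5f1 led, and Fgf4, an autocrine growth factor of ESCs, was not listed undifferentiated and had 1.55 RPM (53 reads) on day 7. Klf2, a naive pluripotency factor, went from 0.168 to 1.43 RPM. Dppa2, which acts at bivalent promoters, went from 0.673 to 1.55 RPM, with no listed site in the treated library. Sall4, a zinc-finger factor, was not listed undifferentiated and had 0.818 RPM (28 reads) on day 7, just inside the call with a lowest ratio of 2.03. These values are small. Of the 5, Fgf4 and Sall4 had no site and Pou5f1 and Klf2 had 1 site listed undifferentiated, so that these 4 were kept only through their day 7 sites and the count is no support for a difference of the list. With 3 sites required in each library 1 of the list was called higher, and only Pou5f1 of the 5 passed the interval 3 times as wide as counting. When the promoter was narrowed to 500 bp, none of the list was called higher.

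The other pluripotency promoters kept were not called. Of these, Dppa4 went from 0.236 to 0.731 RPM with an allowed ratio of 1.14 to 3.60, and Prdm14, a repressor in naive ESCs, from 1.14 to 2.28 RPM with 1.78 to 2.09. Otx2 and Utf1 rested on 5 reads each undifferentiated and 14 and 13 on day 7. Nanog, whose promoter has 2 CCGG sites and was not kept, had 26 reads undifferentiated and 28 on day 7. Sox2 had no listed site at 25 promoter motifs in either library. The promoter of Esrrb, an orphan nuclear receptor, went from 5.62 to 3.42 RPM with an allowed ratio of 0.543 to 0.650, short of the call, and its body stayed at 136 RPM at 154 sites. Lefty1, a Nodal antagonist, had 1.72 and 2.19 RPM in the promoter and 0.976 and 1.84 RPM in the body (allowed ratio 1.48 to 1.89), and neither was called. Lefty2, its paralog, had 68 and 127 reads at 2 promoter sites and 6.06 and 4.27 RPM in the body. The body of Sall4 had 26.8 and 27.9 RPM. Trim28, a corepressor of retroelements, had no listed promoter site and 11.2 and 14.6 RPM in the annotated body, a ratio of 1.21 to 1.33. Most of these body sites lay upstream of its start site, several of them also in Zbtb45. The sites 3011, 5557 and 6460 bp downstream had 17, 19 and 5 reads undifferentiated and 20, 88 and 16 on day 7.

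The retinoic acid pathway had 16 of 25 promoters kept, of which 4 were higher and none lower, with a median log2 ratio of 0.88 (0.97 with bounds). Besides Nrip1, Rxrg, a retinoid X receptor, went from 1.72 to 4.15 RPM, and the retinoic acid degrading enzymes Cyp26b1 and Cyp26a1 went from 0.404 to 1.55 RPM and from 0.168 to 1.02 RPM. Other members went the other way without being called. Rxra, another retinoid X receptor, went from 5.18 to 2.54 RPM (154 and 87 reads) with an allowed ratio of 0.478 to 0.536, just short of a lower call. The log2 ratio was -0.90 for Rarb, a retinoic acid receptor, -0.74 for Stra6, a retinol transporter, and -0.68 for Hoxb1, a retinoic acid target. With shared fragments counted once, Nrip1 was not kept and Rxrg was not called, which left Cyp26a1 and Cyp26b1. Nrip1, Cyp26a1 and Cyp26b1 had 0, 1 and 2 sites listed undifferentiated and were kept through their day 7 sites, and with 3 sites required in each library 1 promoter of the list was called higher. With a promoter of 3 kb, the log2 ratio of Cyp26a1 reversed to -0.40, and with the interval 3 times as wide as counting none of the 4 passed. Epithelial and mesenchymal genes had 6 of 15 promoters kept, 3 higher and none lower, with a median of 0.03 (0.60 with bounds). The lowest log2 ratio in this list was -1.25, at a promoter that was not called, and 5 of the 6 lay above 0 with bounds. Snai1, a repressor of E-cadherin, went from 0.707 to 1.43 RPM. Vim, an intermediate filament of mesenchymal cells, was not listed undifferentiated and had 0.906 RPM on day 7. Fn1, fibronectin, was likewise not listed and had 0.818 RPM, and the counting limit of its lowest ratio was 0.998. Vim and Fn1 were kept through their day 7 sites alone, where they are high, and with 3 sites required in each library Snai1 was the only one left. None of the 3 passed the interval 3 times as wide as counting.

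In the remaining lists few promoters passed the call. None of 31 germline, 11 DNA methylation, 10 LSD1 and partner, 15 neural, 12 trophoblast and 20 Hox promoters kept was called in either direction. Their medians were 0.11, 0.24, 1.01, 0.44, 0.29 and -0.04. The LSD1 list, with a median of 1.01 among promoters listed in both libraries and 0.75 with bounds, had a median level of 0.656 RPM undifferentiated and 1.71 RPM on day 7. Of its 10 promoters 1 had no site listed undifferentiated. Promoters can be kept through their day 7 sites, where they are high, so this median is no support for a difference of the list. With shared fragments counted once its median was 0.65, that of the germline list 0.02 and that of the Hox list 0.03, with the sign turned for the Hox list. Of 21 endoderm and mesoderm promoters 1 was higher, that of Tbx5, a cardiac and forelimb factor, from 0.505 to 1.40 RPM. Of the 30 bodies kept in that list 2 were higher and 1 lower, beside 0.856% and 1.12% of all bodies, and 1 of the 2, Sox17, had no site listed undifferentiated and was kept through its day 7 sites alone. Myod1, the skeletal muscle factor, went from 1.28 to 2.98 RPM, Sox17, an endoderm factor, from no listed site to 1.43 RPM, and Cxcr4, a chemokine receptor, from 10.8 to 4.70 RPM, and only Cxcr4 of these passed the interval 3 times as wide as counting. Of 27 imprinted promoters 1 was higher, Nap1l5, from 1.75 to 4.56 RPM. Of 7 housekeeping promoters kept of 30, that of Actb, beta-actin, went from 2.02 RPM (60 reads) to 6.55 RPM (224 reads), with 5.58 RPM treated and 7 of 7 sites higher. Of the 7 Actb sites, 3 were listed undifferentiated, and the others count as higher by construction. Actb passed the interval 3 times as wide as counting. The body medians of all 12 lists lay between -0.02 and 0.29.

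**Figure D5:**
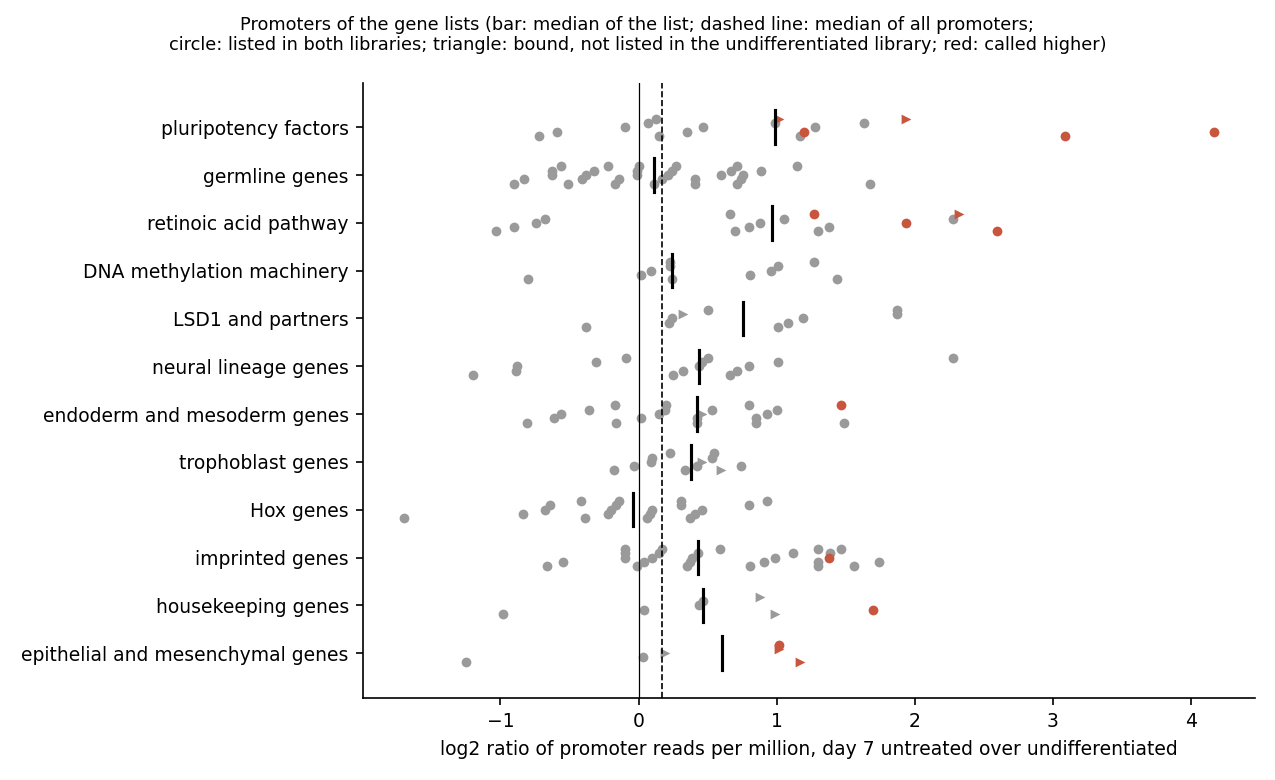
Log2 ratio of promoter RPM, day 7 untreated over undifferentiated, for each kept member of the 12 gene lists. Circles are promoters listed in both libraries, triangles are bounds for promoters not listed in the undifferentiated library, red marks a promoter called higher and grey one not called. The black bar is the median of the list and the dashed line that of all promoters (0.17, with bounds). Most red points belong to the pluripotency, retinoic acid and epithelial and mesenchymal lists. Most of these had fewer than 3 sites listed undifferentiated and were kept through their day 7 sites. Their number is no support for a difference of these lists.

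The calls were spread over all 19 autosomes. The promoter median ran from 0.06 on chromosome 6 to 0.19 on chromosome 10, and the share of higher promoters from 4.31% on chromosome 13 to 7.03% on chromosome 19. Of 7002 protein-coding promoters 460 were higher and 208 lower, whereas of 2162 long noncoding promoters 106 were higher and 121 lower. Bodies of genes under 10 kb were called higher in 2.43% and lower in 2.54% of 4562, and of 2749 bodies over 100 kb none was higher and 1 was lower, where each body rests on a median of 71.0 sites. Families of zinc-finger genes with numbered names had 11 of 104 promoters higher (10.6%) and 2 lower (1.92%), beside 5.70% and 3.80% of all promoters and 8.24% and 2.46% of high-CpG promoters. Olfactory receptors had 2 of 50 higher and 2 lower, near the shares of all promoters.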

How the data were processed

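The authors trimmed the reads, mapped them to GRCm38 with Bowtie2 2.3.3 (quality was checked with FastQC 0.11.3, per the submitters' processing notes), kept unique alignments and deposited a read count per site, with a minimum of 5 reads. The RPM column that the authors deposited divides this count by the mapped reads of the library. Here the counts were used, and RPM values were computed anew from the CCGG counts of the 19 autosomes after dropping a repeat region of chromosome 2. Genes and start sites were those of GENCODE M21 basic transcripts, and a site counted for every gene it lay in. Exact (Clopper-Pearson) 95% intervals reflect counting error alone, and PCR copies of a fragment were not told apart. No test was made, as there was 1 library per condition.

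Depth was 29711884 CCGG reads undifferentiated, 34222790 on day 7 untreated and 24035286 treated. The CCWGG counts were not used here, because 268315 of 268383 CCAGG and 269653 of 269725 CCTGG sites common to the undifferentiated and day 7 lists carried the same count. At CCGG sites 19754 of 785234 did. How the lists came to share these counts is not given in the sources used here.

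The members, the 12 gene lists and the call rule were chosen with earlier results of these data known. Named genes were protein-coding genes, except those named Gm with a number or ending in Rik, that ranked first by the counting limit nearest to 1 of the least favourable allowed ratio (8 promoters and 6 bodies in each direction, up to 4 members of each list), with 8 further genes named whatever their values. Alternatives varied the minimum of reads and sites, the scaling, the fold, the promoter width, the CpG window and shared sites. The counting of sites within 12 bp, the interval 3 times as wide as counting, the ribosomal RNA locus and the minimums and scaling of the profile were added after the data were seen. The calling code was run on simulated counts whose true ratios were set. The analysis used pandas 2.3.3 and numpy 2.4.6 under Python 3.11.15, SciPy 1.17.1 for intervals and matplotlib 3.10.9 for plots.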

Additional observations from a re-analysis of the deposited data

How the results depend on the processing

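With 1 library per condition no left-out replicate could be tried. No paired analysis was possible because each condition had 1 library. Counts below are promoters higher and lower, out of a reported 661 and 441, and gene bodies, out of a reported 179 and 234. With unlisted sites at 0 reads, 1990 promoters and 316 bodies were higher. With sites listed in both libraries, 162 promoters were higher and 230 lower, and the promoter median log2 ratio was 0.01. At least 10 reads per site gave 145 and 235 promoters and 98 higher bodies. Scaling to mapped reads shifted the log2 ratio of every gene by -0.33 and gave 227 and 995 promoters, 57 and 783 bodies and medians of -0.19 for promoters and -0.33 for bodies. A fold of 1.5 gave 2061 and 1227 promoters and 892 and 1070 bodies. With 2-fold reached by the 95% counting limit, 61 and 89 promoters and 22 and 54 bodies were left. A promoter of 500 bp gave 217 lower, one of 3 kb gave 900 lower, and 1 kb upstream only gave 288 and 181. At least 5 sites gave 132 and 67 promoters and 46 and 84 bodies, and 3 sites in each library gave 159 and 219 promoters and 107 higher bodies. Leaving out the deepest site gave 423 and 265 promoters and 360 lower bodies. Protein-coding genes alone gave 208 lower promoters and 100 and 135 bodies, and sites in 1 region of 1 gene gave 394 and 267 promoters. The number of pluripotency promoters called higher (5) was 2 with sites in both libraries and with scaling to mapped reads, 0 with a promoter of 500 bp, and 1 with at least 10 reads, upstream only, at least 5 sites, 3 sites in each library and the deepest site left out. The number of retinoic acid pathway promoters (4) was 2 with at least 10 reads, with 500 bp and with upstream only, and 1 with sites in both libraries, mapped reads, 3 kb, at least 5 sites, 3 sites in each library and the deepest site left out. With 1 window of 500 bp on the most upstream start site, high-CpG promoters were 273 higher and 73 lower, intermediate ones 89 lower with a median of 0.22, and low ones 187 higher and 279 lower. Of 564 values of named genes under these alternatives, 449 stayed within the counting interval, 113 moved and 2 reversed: the Cyp26a1 promoter to -0.40 with 3 kb and the Crxos body to 0.13 with upstream only. The cause of these shifts was not tested.

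Alternatives added after seeing the data gave the following. The interval 3 times as wide as counting gave 64 and 132 promoters and 49 and 116 bodies, with 1 pluripotency and 0 retinoic acid promoters. Counting sites within 12 bp once left 2 retinoic acid promoters. High-CpG promoters were 60 higher and 64 lower with a median of 0.04 for sites in both libraries, 50 and 50 with 0.16 for at least 10 reads, and 150 and 294 with -0.01 for mapped reads. Intermediate ones were 60 and 82, 56 and 89, and 52 and 369 with a median of -0.26 for mapped reads, and low ones were 42 and 84, 39 and 96, and 25 and 332 with a median of -0.31, in the same order. The ratio within 500 bp of high-CpG start sites (1.41) was 1.30 with 10 reads, 1.34 with 6 reads on day 7, 1.21 with 20 reads, 1.10 with sites in both libraries, 1.35 without the ribosomal RNA locus, 1.38 with fragments counted once and 1.13 with mapped reads.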
